A study of Homo sapiens with 18 samples.

Results

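Raji cells, an established B-cell line from a Burkitt lymphoma that carries Epstein-Barr virus, were compared at 12 h and at 0 h of a time course. The arrays were chosen by their titles: 3 arrays of cells harvested at 12 h and 3 of cells harvested at 0 h, 6 of the 18 arrays in the series, with 18417 human genes measured on each. Cells at 12 h and cells at 0 h both carry the same 3 compounds in the labels, sodium n-butyrate at 3 mM and a phorbol ester at 0.05 µM as inducers and maslinic acid at 19 µM. The labels do not say how long the induction lasted or whether the 0 h cells were harvested before or after maslinic acid was added. It is therefore unknown whether a difference at 12 h minus 0 h covers all 3 compounds or the time after an induction that the 0 h cells had already had. The labels call the 3 arrays of a time biological replicates and do not say whether they came from separate cultures. The p-values therefore measure the spread between arrays of the same time, pooled over all 18 arrays of the series. No array without the compounds and no untreated array at 12 h was analysed here, so the compounds together and the time in culture cannot be told apart, and no difference can be given to 1 compound. The question put to these arrays was what state the cells were in at 12 h, the last harvest before the 24 h arrays, on which interferon-stimulated genes are high.

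As background, phorbol esters mimic diacylglycerol and activate protein kinase C, which in B cells feeds the RAS and ERK cascade and NF-kappaB. Sodium n-butyrate inhibits histone deacetylases, and maslinic acid is a plant triterpene. The pair of inducers is used to move Epstein-Barr virus into its lytic cycle. B cells of the germinal centre, from which Burkitt lymphoma is thought to arise, carry their own surface receptors, transcription factors and antigen receptor signalling proteins, and divide fast.

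Levels are deposited log2 intensities, on which a difference of 1 is a 2-fold change. The medians of the 12 h arrays were 4.13 to 4.22 and those of the 0 h arrays 4.03 to 4.16. The arrays' number limits the precision, since no counts stand behind a value. With a gene called changed at a Benjamini-Hochberg adjusted p under 0.05 in limma's moderated test, 1483 of 18417 genes were called (8.05%), 720 higher at 12 h (3.91%) and 763 lower (4.14%). Counts of called members in the gene lists below are to be read against these shares. At least 2-fold changes were called for 315 genes higher at 12 h (1.71%) and 382 lower (2.07%). The median difference over all genes was 0.05. Centring each array on its median moved every difference by -0.10, and the share of higher genes among the calls was 48.6% as deposited, 33.9% after centring and 50.7% after quantile normalization. Without replicate 1 of 12 h the count was 888, and without replicate 2 of 0 h it was 977.

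The label of the cells was checked against marker genes. The 7 measured B cell markers had array means of 6.07 to 6.33 at 12 h and 7.06 to 7.26 at 0 h, while the lists for T cells, NK cells, monocytes, epithelium, fibroblasts and erythroid cells had array means of 3.20 to 3.83 at 12 h and 2.99 to 3.70 at 0 h. As list means, B cell markers were therefore higher than the others at both times. Single markers overlapped between lists. The lowest B cell marker averaged 3.79 at 12 h and 4.57 at 0 h, and the fibroblast marker COL1A1 averaged 5.56 and 5.13. Of the B cell markers, 4 fell, MS4A1, CD22, PAX5 and BLK, and 0 rose, with 1 lower without replicate 1 of 12 h or replicate 2 of 0 h and 2 or 3 without the others. On bulk arrays of this kind, fewer cells of a type and less RNA per cell cannot be told apart. TRAT1, a T cell receptor-associated gene, fell by 1.81 (adjusted p = 4.32e-05) and was the single called gene among the other cell types' markers.

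**Figure D1:**
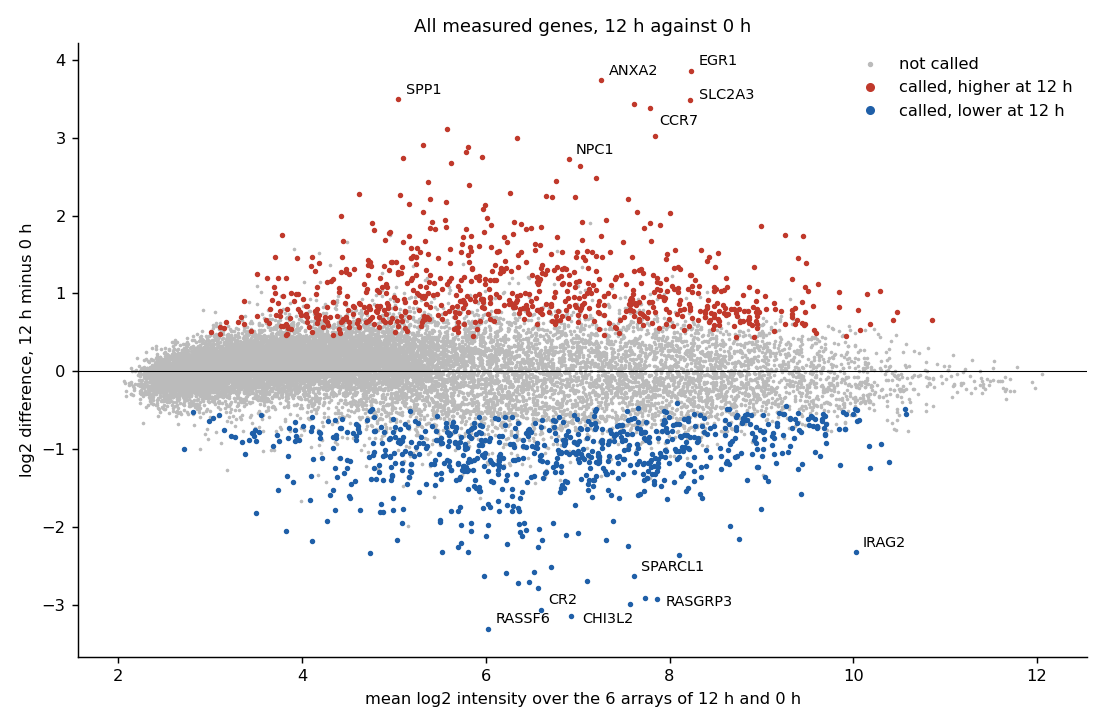
Log2 difference of every measured gene at 12 h minus 0 h (vertical axis) against its mean log2 intensity over the 6 arrays (horizontal axis), 1 point per gene. Red points are the 720 genes called higher at 12 h, blue points the 763 called lower, grey points the genes not called; EGR1 lies highest and RASSF6 lowest among the called genes.

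The largest rise was that of EGR1, an immediate early transcription factor that ERK signalling induces through serum response factor. Its level was 10.17, 9.98 and 10.36 on the 12 h arrays, against 5.89, 6.05 and 6.98 on the 0 h arrays. All 12 h arrays lay far above all 0 h arrays, and replicate 3 was the highest of the 0 h arrays. The difference was 3.86 (SE 0.33, adjusted p = 2.28e-06), 14.6-fold. The promoter is printed because it holds the CArG box, the element that serum response factor binds. The 250 bases before the EGR1 start site (RefSeq, GRCh38.p14, chr5:138465229-138465478, plus strand, 5′ to 3′) held 2 CArG boxes, in capitals, which began at positions -105 and -83 from the start site:
EGR1: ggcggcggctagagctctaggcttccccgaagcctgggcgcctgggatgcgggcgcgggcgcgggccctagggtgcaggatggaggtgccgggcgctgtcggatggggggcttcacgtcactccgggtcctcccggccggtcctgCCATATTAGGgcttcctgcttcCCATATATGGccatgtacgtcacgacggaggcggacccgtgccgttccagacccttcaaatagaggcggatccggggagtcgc

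FOS, the AP-1 subunit, stood at 6.09, 6.16 and 6.78 on the 12 h arrays, against 4.8, 3.65 and 4.42 on the 0 h arrays, with no overlap. It rose by 2.05 (SE 0.39, adjusted p = 0.00243). KLF10, a Kruppel-like repressor induced by TGF-beta, rose by 0.97 (adjusted p = 0.0335). These were the 3 of 30 measured EGR, AP-1 and Kruppel-like factors that rose, and 0 fell. That is 10.0% called, near the 8.05% of all genes, with a list median of 0.28 against 0.05 over all genes. JUN differed by 0.26 and EGR3 by 0.07, neither of them called. KLF10 lost its call without replicate 1 or 3 of 12 h or replicate 2 or 3 of 0 h (adjusted p 0.0886 to 0.136).

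Of 16 measured genes that dampen ERK signalling, 6 rose and 0 fell, with a list median of 0.28. SPRED2 and SPRED1, which hold back RAF activation, rose by 1.61 (adjusted p = 0.00461) and 1.54 (adjusted p = 0.000207). DUSP5, a nuclear phosphatase that acts on ERK, had 5.89, 6.06 and 6.19 at 12 h, against 4.09, 4.81 and 4.48 at 0 h. The 12 h arrays all lay above the 0 h arrays, and DUSP5 rose by 1.59 (adjusted p = 7.61e-05). The phosphatases DUSP10 and DUSP2 rose by 1.10 and 0.80, and SPRY4, another RAS pathway inhibitor, by 1.01. DUSP6, the cytoplasmic ERK phosphatase, differed by -0.25 and was not called. Without any 1 array, 4 or 5 of the 16 stayed above the threshold. DUSP10 was lost without replicate 2 or 3 of 12 h or replicate 1 or 2 of 0 h (adjusted p 0.0513 to 0.0927), and DUSP2 without any array but replicate 3 of 0 h (adjusted p 0.055 to 0.252) or under 4 other alternatives (adjusted p 0.0539 to 0.0666). SPRY4 was lost without replicate 1 of 12 h or replicate 3 of 0 h (adjusted p 0.0721 to 0.0794).

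Of 24 protein kinase C and diacylglycerol genes, 0 rose and 3 fell, with a list median of 0.10. RASGRP3, a RAS exchange factor that binds diacylglycerol and phorbol esters, had 6.24, 6.90 and 6.05 at 12 h, against 9.38, 9.15 and 9.46 at 0 h. Its lowest 0 h array lay well above its highest 12 h array, and it fell by 2.93 (SE 0.27, adjusted p = 3.68e-06). Its relative RASGRP1 fell by 1.34 (adjusted p = 0.00337), and PLCG2, the phospholipase that makes diacylglycerol below the B cell receptor, fell by 0.99 (adjusted p = 0.0424). PLCG2 was not called when any of the 6 arrays was dropped (adjusted p 0.0717 to 0.139), and a second probe set of PLCG2 differed by -0.53 (adjusted p = 0.0647 for the mean of both). The kinase genes themselves were not called, with PRKCA at 0.40, PRKCB at 0.34 and PRKCE at -0.31.

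**Figure D2:**
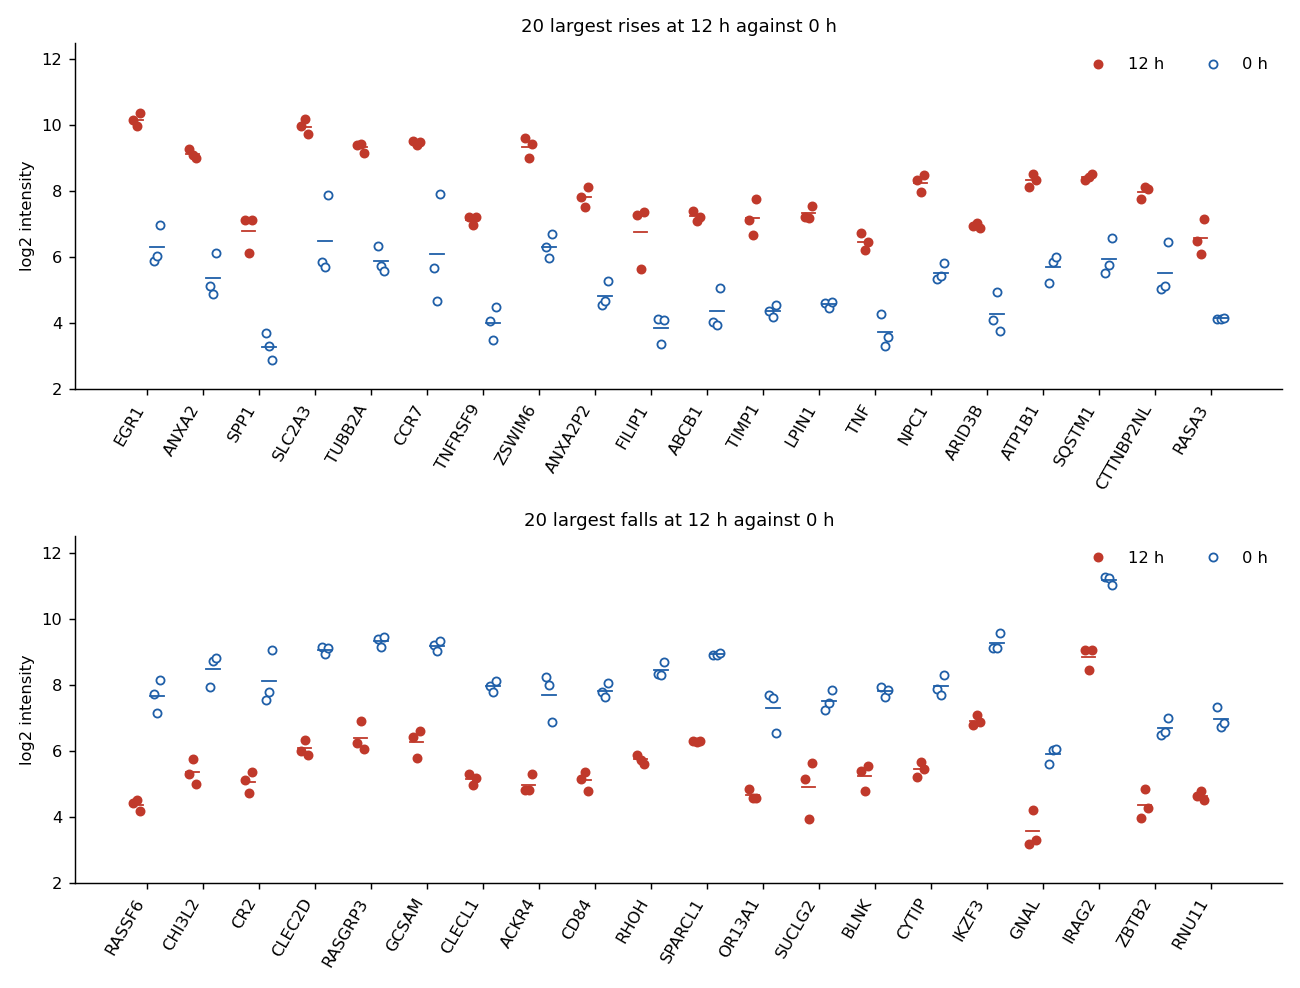
Log2 intensity of the 20 genes with the largest rises (top) and the 20 with the largest falls (bottom) on each array, filled red points for 12 h and open blue points for 0 h, with short lines at the means of 3 arrays. The 3 arrays of 12 h lie on 1 side of the 3 of 0 h for every gene shown, which the choice of genes required.

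Some of the largest rises were those of membrane and matrix protein genes. ANXA2, a calcium-dependent membrane-binding protein, had 9.28, 9.09 and 9.0 at 12 h, against 5.13, 4.90 and 6.12 at 0 h. The 12 h arrays lay close together and far above the 0 h arrays, and ANXA2 rose by 3.74 (SE 0.34, adjusted p = 3.22e-06), 13.4-fold. The ANXA2 promoter is printed because it holds an AP-1 motif, searched as TGACTCA on both strands. The 250 bases before its start site (RefSeq, GRCh38.p14, chr15:60397987-60398236, minus strand, 5′ to 3′) held 1 match, in capitals, at position -127:
ANXA2: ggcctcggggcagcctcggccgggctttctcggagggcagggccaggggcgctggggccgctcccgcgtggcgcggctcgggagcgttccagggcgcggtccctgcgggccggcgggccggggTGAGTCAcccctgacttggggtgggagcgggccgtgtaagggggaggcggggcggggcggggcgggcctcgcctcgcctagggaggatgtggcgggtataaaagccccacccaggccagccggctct

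SPP1, the secreted phosphoprotein osteopontin, had 7.13, 6.13 and 7.14 at 12 h, against 3.70, 3.32 and 2.88 at 0 h. It rose by 3.50 (adjusted p = 7.3e-06). TIMP1, an inhibitor of matrix metalloproteinases, had 7.13, 6.69 and 7.78 at 12 h, against 4.37, 4.18 and 4.57 at 0 h, and rose by 2.82 (adjusted p = 0.000101). The 12 h arrays lay above the 0 h arrays for both genes, with replicate 2 the lowest of the 12 h arrays. ANXA2P2, a pseudogene of ANXA2 whose probe set can share signal with it, rose by 3.00 and is uncertain for that reason. The transmembrane glycoprotein gene GPNMB rose by 2.24 (adjusted p = 0.000127) and the intermediate filament gene VIM by 1.84 (adjusted p = 0.00107). S100A10, the protein partner of ANXA2, rose by 1.67, the galectin gene LGALS1 by 1.28 and ANXA5, which binds phosphatidylserine, by 0.79.

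These genes made up 8 of 28 annexin, S100 and matrix genes that rose, with a list median of 0.22, and 1 fell. That gene was SPARCL1, a secreted matrix-associated glycoprotein, with 6.31, 6.29 and 6.29 at 12 h, against 8.91, 8.92 and 8.97 at 0 h. It had the smallest standard error of the 20 largest falls, and it fell by 2.63 (SE 0.17, adjusted p = 2.11e-07). The matrix metalloproteinase genes MMP7, MMP9 and MMP14 differed by 0.26, 0.28 and 0.25 and were not called, and ANXA6 differed by -0.57. S100A10 was lost without replicate 2 or 3 of 12 h or replicate 1 or 2 of 0 h (adjusted p 0.0646 to 0.0695). LGALS1 was lost without replicate 1 or 2 of 12 h or replicate 2 or 3 of 0 h (adjusted p 0.0696 to 0.139), and its adjusted p was 0.0517 with each array centred.

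Of 26 cytoskeleton genes, 5 rose and 0 fell, with a list median of 0.36. TUBB2A, a beta-tubulin, had 9.41, 9.43 and 9.15 at 12 h, against 6.35, 5.74 and 5.58 at 0 h, and rose by 3.44 (adjusted p = 7.3e-06). A dimmer probe set of TUBB2A differed by 1.39, and the probe sets of near-identical tubulins can share signal. VCL, which links actin to adhesion sites, rose by 1.32 (adjusted p = 0.000172) and the motor protein gene MYO1E by 1.21 (adjusted p = 0.000118). TUBB6, another beta-tubulin, rose by 0.88 and ZYX, an adaptor of focal adhesions, by 0.87. Without replicate 2 or 3 of 12 h or of 0 h the count was 3. TUBB6 was lost without any array but replicate 1 of 12 h (adjusted p 0.064 to 0.131), and ZYX without any but replicate 1 of 0 h (adjusted p 0.0677 to 0.17).

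Adhesion molecules gave 5 higher and 1 lower gene of 23, with a median of 0.22. PECAM1, an adhesion receptor of endothelium and leukocytes, had 6.24, 5.55 and 6.17 at 12 h, against 4.82, 4.53 and 3.84 at 0 h, and rose by 1.58 (adjusted p = 0.00921). A second, dim probe set of PECAM1 differed by -0.19, and the gene was not called without replicate 1 of 12 h or replicate 3 of 0 h (adjusted p 0.0505 to 0.0539) or with the mean of its probe sets (adjusted p = 0.0933). The integrin chains ITGAX, ITGAV and ITGA6 rose by 1.08, 0.85 and 0.64, and the tetraspanin gene CD63 by 1.01. ITGA4, the integrin chain through which lymphocytes bind VCAM1, had 7.23, 7.0 and 7.32 at 12 h, against 8.26, 8.33 and 8.64 at 0 h, and fell by 1.23 (adjusted p = 0.000636). Of the 5 calls, 0 remained without replicate 1 of 12 h and 2 or 3 without any other array, while the differences stayed at 1.31 to 1.80 for PECAM1, 0.90 to 1.25 for ITGAX, 0.83 to 1.18 for CD63, 0.69 to 1.02 for ITGAV and 0.58 to 0.75 for ITGA6. ITGA6 was lost without replicate 1 or 3 of 12 h (adjusted p 0.0622 to 0.0649), and ITGAX without those or replicate 2 or 3 of 0 h (adjusted p 0.069 to 0.115). ITGAV was lost without replicate 1 or 2 of either time (adjusted p 0.0506 to 0.113), and CD63 without any but replicate 3 of 0 h (adjusted p 0.0545 to 0.15) and with centred arrays (adjusted p = 0.0713). ITGA4 held its call without any 1 of the 6.

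Among TNF ligands and receptors, 4 of 24 rose and 1 fell, with a list median of 0.17. TNFRSF9, the co-stimulatory receptor 4-1BB, had 7.21, 6.97 and 7.23 at 12 h, against 4.09, 3.50 and 4.49 at 0 h, and rose by 3.11 (adjusted p = 2.17e-05). Its ligand gene TNFSF9 rose by 1.00 (adjusted p = 0.00899, or 0.0587 without replicate 2 of 0 h). The cytokine TNF had 6.73, 6.22 and 6.45 at 12 h, against 4.28, 3.31 and 3.59 at 0 h. It rose by 2.74 (adjusted p = 2.31e-05). The arrays of 12 h and 0 h did not overlap for TNF or TNFSF9. TNFRSF10B, a death receptor for TRAIL, rose by 1.31 (adjusted p = 0.000542). FAS, the receptor for FAS ligand, had 5.81, 6.27 and 5.82 at 12 h, against 7.79, 7.64 and 8.71 at 0 h, and fell by 2.08 (adjusted p = 7.63e-05). The 2 death receptors named thus differed in direction, with all arrays of 12 h above those of 0 h for TNFRSF10B and below for FAS.

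Of 20 NF-kappaB subunits, inhibitors and targets, TNIP2, an inhibitor that works with TNFAIP3, was the 1 that rose, by 0.77 (adjusted p = 0.0441), and 0 fell. This 1 call was 5.0% of the list, against 8.05% of all genes. TNIP2 dropped out without each of the 6 arrays in turn (adjusted p 0.0684 to 0.171) and with centred arrays (adjusted p = 0.094). TNFAIP3, a feedback inhibitor of NF-kappaB, had 6.15, 6.22 and 6.58 at 12 h, against 4.94, 5.11 and 5.96 at 0 h, a difference of 0.98 that was not called (adjusted p = 0.121). RELA differed by 0.51 (adjusted p = 0.12). The median of the list was 0.26, and 7 members had all 12 h arrays above all 0 h arrays while 2 had them below. Over all genes the arrays of 12 h lay wholly above those of 0 h for 15.6% and wholly below for 12.3%.

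Of 30 cytokines, chemokines and their receptors, 3 rose and 1 fell. TGFB1, which encodes transforming growth factor beta, rose by 1.04 (adjusted p = 0.00494), the interleukin-10 receptor chain IL10RA by 0.83 and IL2RG, the shared chain of several interleukin receptors, by 0.66. IL7R, the interleukin-7 receptor of lymphoid precursors and T cells, had 5.61, 6.11 and 5.76 at 12 h, against 8.30, 7.62 and 7.86 at 0 h, and fell by 2.10 (adjusted p = 4.03e-05). The chemokine gene CCL22 differed by 1.90 and was not called. IL10RA and IL2RG were each lost without replicate 2 or 3 of 12 h or replicate 2 of 0 h, with adjusted p of 0.0501 to 0.124 and 0.0625 to 0.109. With centred arrays IL2RG had an adjusted p of 0.0638.

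**Figure D3:**
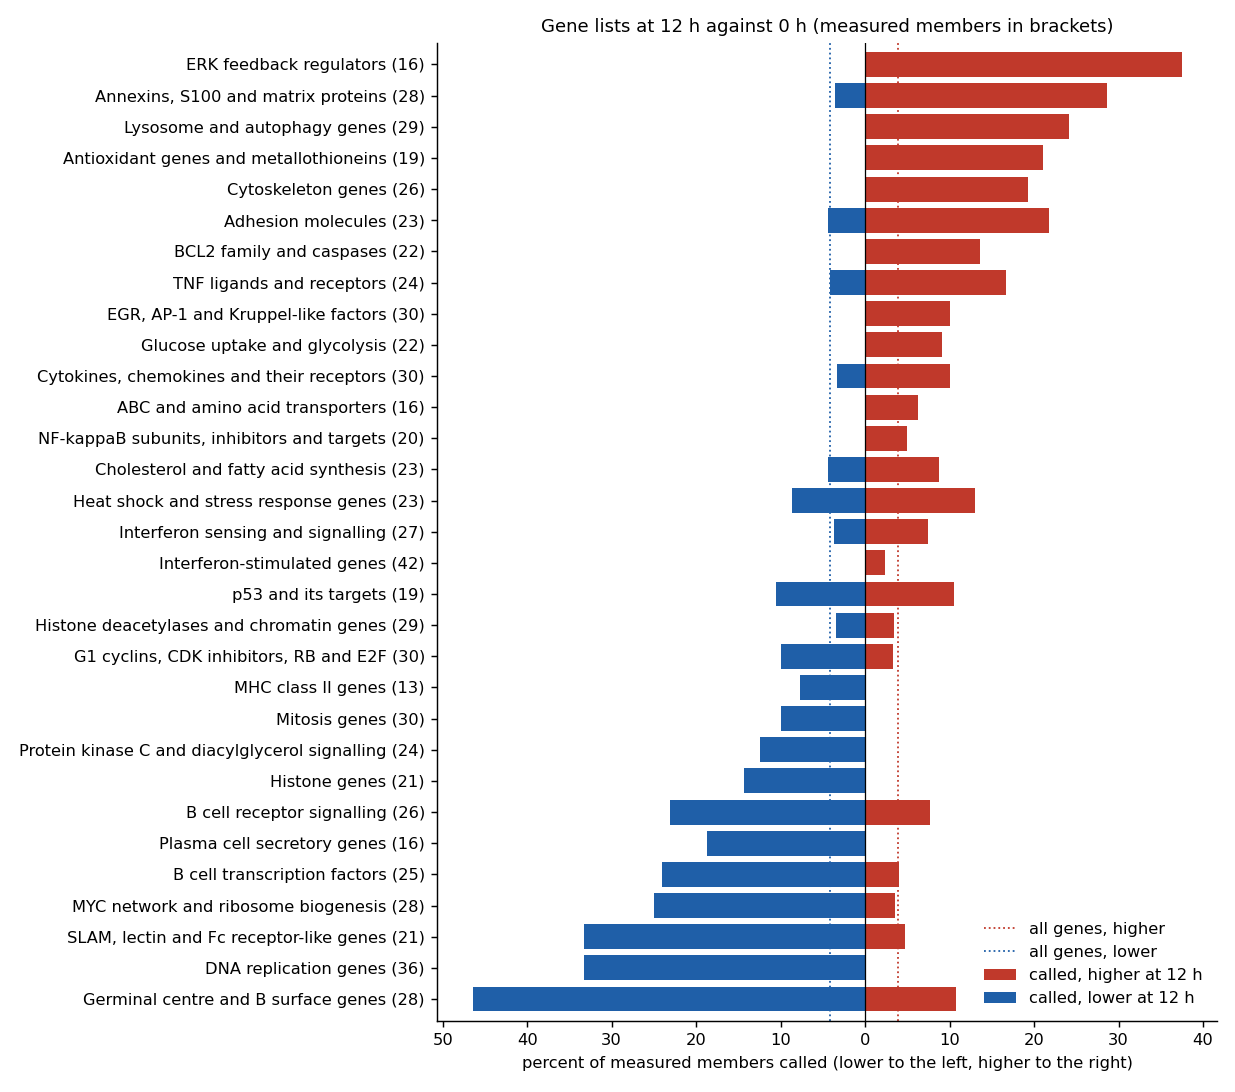
Percent of the measured members of each gene list described here called lower at 12 h (blue, to the left of 0) and higher at 12 h (red, to the right), with the number measured in brackets and dotted lines at the 3.91% higher and 4.14% lower of all genes. ERK feedback regulators have the largest red bar, 6 of 16 genes, and germinal centre and B surface genes the largest blue bar, 13 of 28.

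The germinal centre and B surface list had the largest share of lower genes, 13 of 28, with 3 higher and a median of -0.58. CR2, a complement receptor of B cells that Epstein-Barr virus uses for entry, had 5.11, 4.75 and 5.36 at 12 h, against 7.55, 7.79 and 9.07 at 0 h. It fell by 3.07 (SE 0.41, adjusted p = 0.000116), and replicate 3 was the highest 0 h array. GCSAM, a signalling protein of germinal centre lymphocytes, had 6.42, 5.80 and 6.61 at 12 h, against 9.20, 9.03 and 9.34 at 0 h. It fell by 2.91 (adjusted p = 3.22e-06). ACKR4, a chemokine-scavenging receptor, fell by 2.72 (adjusted p = 0.00126), but a second probe set near background differed by -0.39. The enzyme CD38 fell by 2.25 (adjusted p = 0.001), the TNF receptor family gene CD27 by 1.80 (adjusted p = 0.00109) and MME, the germinal centre marker CD10, by 1.40 (adjusted p = 8.62e-05).

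P2RY8 and GPR183, receptors that position B cells in and around the follicle, fell by 1.78 and 1.58, the germinal centre protease inhibitor SERPINA9 by 1.70 and MS4A1, which encodes CD20, by 1.26. RGS13, a brake on chemokine signalling, fell by 1.78 and dropped out without each of the 6 arrays in turn (adjusted p 0.0538 to 0.137). GPR183 was lost without replicate 1 of either time (adjusted p 0.0581 to 0.0602), and MS4A1 without replicate 2 of 12 h or replicate 1 of 0 h (adjusted p 0.0579 to 0.0641). Leaving out 1 array gave 9 to 12 lower genes. CXCR5 and CXCR4, the chemokine receptors of follicle and dark zone, differed by -0.33 and -0.47 and were not called.

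CCR7, a chemokine receptor for homing to lymph nodes, went against its list. Its level was 9.53, 9.41 and 9.49 at 12 h, against 5.67, 4.69 and 7.93 at 0 h. The 12 h arrays were nearly alike, while the 0 h arrays differed widely (SD 1.66). CCR7 rose by 3.38 (SE 0.59, adjusted p = 0.00131). CD83, a marker of activated B cells and dendritic cells, rose by 1.02 and RGS16, a brake on G proteins, by 0.96. CD83 was lost without replicate 1 or 3 of either time (adjusted p 0.053 to 0.0804), and RGS16 without replicate 1 or 2 of 12 h or replicate 2 or 3 of 0 h (adjusted p 0.064 to 0.101). Without replicate 1 of 12 h or replicate 3 of 0 h, 1 member was called higher.

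B cell receptor signalling genes gave 6 lower and 2 higher of 26, with a median of -0.18. BLNK, the adaptor that joins the receptor's kinases to phospholipase C, had 5.39, 4.79 and 5.54 at 12 h, against 7.94, 7.65 and 7.86 at 0 h, and fell by 2.58 (adjusted p = 3.66e-05). BTK, the kinase below the receptor, had 5.35, 5.09 and 5.81 at 12 h, against 7.46, 7.61 and 7.30 at 0 h, and fell by 2.04 (adjusted p = 7.3e-06). No 12 h array reached the 0 h range for either gene. The scaffold BANK1 fell by 1.52, the inhibitory receptors CD22 and CD72 by 1.29 and 1.06, and the SRC-family kinase BLK by 0.78. SH3BP5, a protein that binds and inhibits BTK, rose by 1.16 (adjusted p = 0.000133) and the kinase LYN by 0.77 (adjusted p = 0.0451). The kinase SYK and the receptor chains CD79A and CD79B differed by -0.98, -0.87 and -0.54 and were not called.

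Without replicate 1 of 12 h the list had 3 lower genes and 1 higher. BANK1 was lost without any array but replicate 2 of 0 h (adjusted p 0.0736 to 0.122). CD22 was lost without replicate 1 or 2 of 12 h or replicate 2 or 3 of 0 h (adjusted p 0.105 to 0.129), and BLK without replicate 1 or 3 of 12 h or replicate 2 of 0 h (adjusted p 0.0761 to 0.111). LYN was lost without any array but replicate 3 of 0 h (adjusted p 0.095 to 0.161) and with centred arrays (adjusted p = 0.0887). The differences lay within -1.71 to -1.39 for BANK1, -1.49 to -1.17 for CD22, -0.92 to -0.63 for BLK and 0.62 to 1.00 for LYN when 1 array was left out. BLNK, BTK, CD72 and SH3BP5 held under each of the 13 alternatives run.

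Of 25 transcription factors of B cells, 6 fell and 1 rose, with a median of -0.47. IKZF3, the Ikaros family factor Aiolos, had 6.79, 7.10 and 6.87 at 12 h, against 9.13, 9.13 and 9.59 at 0 h, and fell by 2.36 (adjusted p = 4.07e-05). ETS1, which holds back plasma cell differentiation, fell by 1.41 (adjusted p = 0.00053). PAX5, the factor that keeps B cell identity, had 5.41, 6.20 and 5.96 at 12 h, against 7.07, 7.51 and 7.0 at 0 h, and fell by 1.34 (adjusted p = 0.0102). The Ikaros family gene IKZF2, the octamer-factor coactivator POU2AF1 and the forkhead factor FOXP1 fell by 1.23, 1.08 and 0.65. IRF4, which plasma cells and activated B cells express, had 6.30, 6.46 and 6.73 at 12 h, against 4.17, 4.30 and 5.46 at 0 h, and rose by 1.85 (adjusted p = 0.00234). Its partner in plasma cells, PRDM1, differed by 0.14, XBP1 by -1.16 and BCL6 by -0.67, and none of these was called. PAX5 was lost without replicate 1 of 12 h or replicate 2 of 0 h (adjusted p 0.0582 to 0.0685), and FOXP1 without replicate 1 of 12 h (adjusted p = 0.0541).

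In the SLAM, lectin and Fc receptor-like list 7 of 21 fell and 1 rose, with a median of -0.27. CLEC2D, the lectin that is a ligand of the NK cell receptor KLRB1, had 6.01, 6.35 and 5.88 at 12 h, against 9.15, 8.93 and 9.11 at 0 h. It fell by 2.99 (SE 0.21, adjusted p = 4.23e-07). The lectin-like gene CLECL1 fell by 2.79 (adjusted p = 1.2e-06), and the SLAM-family receptors CD84, CD48 and SLAMF6 by 2.71, 2.15 and 2.11. FCRL3 and FCRLA, of the Fc receptor-like family, fell by 1.77 and 1.05. SLAMF7, another SLAM-family receptor, rose by 2.24 (adjusted p = 0.000686), with 8.10, 7.89 and 8.29 at 12 h, against 6.07, 4.84 and 6.66 at 0 h. FCRLA was lost without replicate 1 or 2 of either time (adjusted p 0.0829 to 0.133). Without replicate 3 of 0 h, 2 members were called higher.

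Plasma cell secretory genes gave 3 lower and 0 higher of 16, with a median of -0.50. TNFRSF17, the survival receptor BCMA of plasma cells, fell by 1.07 (adjusted p = 0.0036), near the lower end of the scale at 12 h. The chaperone gene MZB1 fell by 0.77 and SPCS3, a signal peptidase subunit, by 0.71. MZB1 was lost without any array but replicate 3 of 0 h (adjusted p 0.0615 to 0.115), and SPCS3 without replicate 1 of 12 h or replicate 1 or 2 of 0 h (adjusted p 0.0539 to 0.0823). Of 13 MHC class II genes, RFX5, a transcription factor of that locus, was the 1 that fell, by 0.89 (adjusted p = 0.0252), and 0 rose. This 1 call was 7.69% of the list, against 8.05% of all genes. RFX5 was lost without replicate 1 or 2 of 12 h or replicate 2 or 3 of 0 h (adjusted p 0.0567 to 0.126). CTSS, the protease that trims the invariant chain, differed by -0.75 (adjusted p = 0.0905) and the regulator RFXAP by -0.33 (adjusted p = 0.184).

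Among growth and division genes, falls outnumbered rises. MYC, a transcription factor of cell growth that is translocated in Burkitt lymphoma, had 5.03, 4.88 and 5.21 at 12 h, against 6.74, 6.58 and 5.88 at 0 h, and fell by 1.36 (adjusted p = 0.000324). MXD1, a repressor that competes with MYC for MAX, had 5.53, 5.90 and 5.82 at 12 h, against 3.99, 3.94 and 4.26 at 0 h, and rose by 1.69 (adjusted p = 8.06e-05). No array of 12 h overlapped those of 0 h for either gene. Of 28 MYC network and ribosome biogenesis genes, 7 fell and MXD1 alone rose, with a median of -0.16. UTP20 and DKC1, of ribosomal RNA processing and modification, fell by 1.19 and 0.79, and SRM, a polyamine enzyme, by 0.80. Leaving out any 1 array gave 3 or 4 lower genes, and quantile normalization gave 4. SRM was lost without replicate 1 or 2 of either time (adjusted p 0.113 to 0.191), under quantile normalization and with the replicate block (adjusted p 0.0521 to 0.0605).

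Of 36 DNA replication genes, 12 fell and 0 rose, with a median of -0.58. TYMS, which makes thymidylate, had 8.83, 8.16 and 8.94 at 12 h, against 10.25, 10.39 and 10.02 at 0 h, and fell by 1.57 (adjusted p = 0.00107). GINS3, of the replicative helicase, fell by 1.45 (adjusted p = 0.00107), POLE2, a subunit of DNA polymerase epsilon, by 1.36 (adjusted p = 0.00628), and the helicase subunits MCM7 and MCM5 by 1.28 and 1.06. PCNA, the sliding clamp, differed by -0.45 and RRM2, of nucleotide reduction, by 0.05, neither of them called. MCM7 was lost without replicate 1 or 3 of 12 h or replicate 1 or 2 of 0 h (adjusted p 0.0523 to 0.166). The count was 7 without replicate 1 or 2 of 12 h or replicate 2 of 0 h, and 8 to 11 without the others.

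Mitosis genes gave 3 lower and 0 higher of 30, 10.0% called against 8.05% of all genes, with a median of -0.53. MAD2L1, of the spindle checkpoint, had 6.61, 6.76 and 7.20 at 12 h, against 8.21, 8.62 and 8.53 at 0 h, and fell by 1.59 (adjusted p = 7.9e-05). CDK1, the kinase that starts mitosis, fell by 1.49 (adjusted p = 0.00243) and FOXM1, a transcription factor of mitotic genes, by 0.98 (adjusted p = 0.0231). MKI67 differed by 0.09, CCNB1 by -0.14 and TOP2A by -0.21, and none was called. FOXM1 was lost without replicate 1 of 12 h or replicate 2 or 3 of 0 h (adjusted p 0.0629 to 0.143), and the list had 5 lower genes without replicate 1 of 0 h and 7 with centred arrays.

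Of 30 G1 cyclins, CDK inhibitors, RB and E2F genes, E2F5, E2F8 and E2F1, of the E2F transcription factor family, fell by 1.47, 1.13 and 0.69. GADD45B, a stress-induced growth arrest gene, rose by 1.55 (adjusted p = 0.0413). With centred arrays 5 genes of the list were lower. The CDK inhibitor CDKN1A differed by 0.88 and was not called. E2F1 was the 1 called gene named here whose arrays overlapped, with 5.31, 5.84 and 5.61 at 12 h, against 5.83, 6.51 and 6.50 at 0 h. It was lost without replicate 1 or 3 of 12 h or replicate 2 or 3 of 0 h (adjusted p 0.0974 to 0.199) and in a fit on the arrays of 12 h and 0 h only (adjusted p = 0.0752), and GADD45B without any array but replicate 3 of 0 h (adjusted p 0.0552 to 0.221).

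Histone genes gave 3 lower and 0 higher of 21. The replication-dependent genes H4C3, H3C2 and H2BC4 fell by 2.17, 1.45 and 1.31, and their near-identical copies can share signal. H4C3 was lost without replicate 1 of 12 h or replicate 3 of 0 h (adjusted p 0.08 to 0.0851), and H3C2 without replicate 1 or 2 of 12 h or replicate 3 of 0 h (adjusted p 0.0528 to 0.0724). Of 29 histone deacetylases and chromatin genes, the histone demethylase gene KDM5B rose by 1.57 (adjusted p = 0.000998) and the acetyltransferase gene KAT2A fell by 0.76 (adjusted p = 0.0196). These 2 calls were 6.9% of the list, against 8.05% of all genes. None of the genes HDAC1 to HDAC11, several of whose products butyrate inhibits, was called, with HDAC3 at 0.95 and HDAC6 at -0.59. Quantile normalization gave 3 higher and 2 lower genes of this list. KAT2A was lost without replicate 1 or 3 of 12 h or replicate 2 or 3 of 0 h (adjusted p 0.0522 to 0.0958).

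Among 19 genes of p53 and its targets, 2 rose and 2 fell. SESN3, a stress-response sestrin that FOXO factors induce, had 10.01, 9.91 and 9.86 at 12 h, against 7.92, 7.72 and 8.56 at 0 h, and rose by 1.86 (adjusted p = 1.31e-05). The polo-like kinase PLK3 rose by 0.68. RRM2B, the p53-induced ribonucleotide reductase subunit, fell by 1.39 (adjusted p = 1.62e-05) and MDM2, the ligase that degrades p53, by 0.68 (adjusted p = 0.00419). Leaving out replicate 2 of 12 h ended the call of PLK3 (adjusted p = 0.0535). Of 22 BCL2 family genes and caspases, APAF1, the scaffold of the apoptosome, rose by 1.53 (adjusted p = 8.77e-05), BAK1, which permeabilizes mitochondria, by 1.23 (adjusted p = 0.0051) and MCL1, which blocks that step, by 0.90 (adjusted p = 0.0412), while 0 fell. MCL1 dropped out without each array in turn (adjusted p 0.0672 to 0.14) and with centred arrays (adjusted p = 0.0517).

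Of 29 lysosome and autophagy genes, 7 rose and 0 fell, with a median of 0.44. NPC1, the transporter that moves cholesterol out of lysosomes, had 8.34, 7.98 and 8.48 at 12 h, against 5.33, 5.45 and 5.84 at 0 h, and rose by 2.73 (SE 0.25, adjusted p = 3.22e-06). NPC2, which hands cholesterol to NPC1, rose by 1.29 (adjusted p = 0.00109). SQSTM1, the autophagy receptor p62, had 8.35, 8.43 and 8.53 at 12 h, against 5.53, 5.76 and 6.58 at 0 h, and rose by 2.48 (adjusted p = 9.8e-05). The sialidase gene NEU1 rose by 2.30 (adjusted p = 0.000778), and ATP6V1B2, ATP6V1H and ATP6V1A, subunits of the proton pump, rose by 1.13, 0.86 and 0.66. TFEB, a transcription factor of lysosomal genes, differed by -0.20 and was not called. ATP6V1H was lost without replicate 2 of 12 h or replicate 1 or 2 of 0 h (adjusted p 0.0793 to 0.0885) and with centred arrays (adjusted p = 0.0523).

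SLC2A3, the glucose transporter GLUT3, had 9.97, 10.18 and 9.74 at 12 h, against 5.86, 5.70 and 7.89 at 0 h. Replicate 3 was again the highest 0 h array, and SLC2A3 rose by 3.48 (SE 0.44, adjusted p = 6.21e-05). SLC2A14, a near-identical copy whose probe set can share signal, rose by 1.2. These were the 2 of 22 genes of glucose uptake and glycolysis that rose, and 0 fell, 9.09% called against 8.05% of all genes. The median of that list was 0.02. The drug efflux pump ABCB1 had 7.41, 7.11 and 7.22 at 12 h, against 4.05, 3.95 and 5.08 at 0 h. It rose by 2.88 (adjusted p = 3.22e-06). It was the 1 of 16 ABC and amino acid transporters called, 6.25% against 8.05% of all genes. SLC7A1, which imports arginine and lysine, differed by -0.99 (adjusted p = 0.0715) and the efflux pump ABCC4 by -0.45 (adjusted p = 0.132).

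Of 23 cholesterol and fatty acid genes, INSIG1, which holds the sterol sensor in the endoplasmic reticulum, rose by 1.46 (adjusted p = 0.0004), and HMGCS1, an early enzyme of cholesterol synthesis, by 1.03 (adjusted p = 0.003). ELOVL6, a fatty acid elongase, fell by 1.63 (adjusted p = 0.00236). Antioxidant genes and metallothioneins gave 4 higher and 0 lower of 19, with a median of 0.42. SRXN1, which repairs oxidized peroxiredoxins, had 6.68, 7.37 and 6.97 at 12 h, against 4.47, 5.16 and 5.14 at 0 h, and rose by 2.08 (adjusted p = 0.000475). The metallothionein gene MT2A rose by 1.39, GCLC, of glutathione synthesis, by 0.98 (adjusted p = 0.00139) and the thioredoxin reductase gene TXNRD1 by 0.73. Without replicate 2 of 0 h the count was 2, with MT2A at an adjusted p of 0.0511. TXNRD1 was lost without replicate 2 or 3 of 12 h or replicate 1 or 2 of 0 h (adjusted p 0.0882 to 0.126) and with centred arrays (adjusted p = 0.0889).

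Of 23 heat shock and stress response genes, 3 rose and 2 fell, with a median of 0.05. The chaperone genes DNAJB1, HSPA2 and BAG3 rose by 1.54, 1.47 and 1.19. HSPA5, the chaperone of the endoplasmic reticulum, fell by 0.62 and PSAT1, of serine synthesis, by 1.02. HSPA8 and HSP90AA1, the abundant cytosolic chaperones, differed by 0.05 and 0.07. Leaving out replicate 2 of 0 h ended the call of DNAJB1 (adjusted p = 0.0656), HSPA5 without replicate 1 of 12 h or replicate 2 of 0 h (adjusted p 0.06 to 0.113), and PSAT1 without any array but replicate 1 of 0 h (adjusted p 0.0584 to 0.134). The signs of the medians of the heat shock, glycolysis and cholesterol lists turned with centred arrays.

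The remaining large changes lay outside the lists. LPIN1, a phosphatidate phosphatase of lipid synthesis, had 7.23, 7.19 and 7.57 at 12 h, against 4.62, 4.48 and 4.65 at 0 h, and rose by 2.75 (adjusted p = 3.67e-05). ATP1B1, the beta subunit of the sodium pump, rose by 2.64 (adjusted p = 5.29e-06), RASA3, a GTPase activating protein for RAS and RAP1, by 2.44 (adjusted p = 0.0013) and FILIP1, which binds filamin, by 2.91 (adjusted p = 0.000292). ZSWIM6 and CTTNBP2NL rose by 3.02 and 2.45. The DNA-binding protein gene ARID3B rose by 2.68, but a second probe set differed by 0.57. TENT5C, a cytoplasmic poly(A) polymerase, and ZFP36, which speeds the decay of AU-rich mRNAs, rose by 2.39 and 1.92 and were chosen after their values were seen.

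Among the called genes, the largest fall was that of RASSF6, a RAS-association protein. It had 4.42, 4.51 and 4.19 at 12 h, against 7.72, 7.16 and 8.16 at 0 h, with no overlap, and fell by 3.31 (SE 0.34, adjusted p = 1.01e-05). The chitinase-like gene CHI3L2 had 5.31, 5.76 and 5.0 at 12 h, against 7.94, 8.74 and 8.82 at 0 h, and fell by 3.14 (adjusted p = 2.79e-05). IRAG2, a lymphoid membrane protein of the endoplasmic reticulum, was bright at both times. IRAG2 had 9.07, 8.46 and 9.05 at 12 h, against 11.28, 11.26 and 11.02 at 0 h, and it fell by 2.32 (adjusted p = 0.000306). CYTIP, which binds cytohesins and regulates lymphocyte adhesion, fell by 2.51 (adjusted p = 0.000196), SUCLG2, a subunit of succinyl-CoA ligase, by 2.59 (adjusted p = 0.000686) and GNAL, a stimulatory G protein subunit, by 2.33 (adjusted p = 2.47e-05). OR13A1, of the olfactory receptor family, and ZBTB2, a zinc finger repressor, fell by 2.63 and 2.32. RNU11, the U11 RNA of the minor spliceosome, fell by 2.32 (adjusted p = 5.6e-05). UNG, the glycosylase that removes uracil from DNA, fell by 1.79 and was chosen after its values were seen.

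Of 42 interferon-stimulated genes measured, SP110, a nuclear body protein, was the 1 that rose at 12 h, and 0 fell. That is 2.38% called, against 8.05% of all genes, with a list median of 0.14. A call depends on the spread pooled over all arrays of the series, which for some of these genes was wide at 24 h. TRIM22 differed by -1.04, with SDs of 0.22 at 12 h, 0.20 at 0 h and 1.05 at 24 h, and was not called. The low share of calls therefore does not by itself show that the list changed less than other genes. The mean level of the 42 genes was 4.46, 4.39 and 4.53 on the 12 h arrays, against 4.45, 4.35 and 4.36 on the 0 h arrays. Members differed in both directions, 25 above 0 and 17 below. On the 24 h arrays the list mean was 7.6, 7.40 and 6.01. All 3 arrays of 24 h lay above all 3 of 12 h for 33 of the 42 genes. SP110 had 7.59, 7.92 and 7.77 at 12 h, against 6.78, 6.30 and 5.62 at 0 h, and rose by 1.53 (95% interval 0.96 to 2.10, adjusted p = 0.0015).

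The 6 genes with the largest difference between 24 h and 12 h had 12 h means of 2.59 (IFI44) to 4.89 (IFIT3). IFIT1, which binds foreign 5′ ends of RNA, had 3.61, 3.84 and 4.04 at 12 h, against 3.14, 3.86 and 2.72 at 0 h, while its mean at 24 h was 10.10 ± 1.04 (SD, n = 3). The arrays of 12 h and 0 h overlapped, and the difference of 0.59 had a 95% interval of -0.26 to 1.44. IFI44, an antiviral gene, had 2.44, 2.73 and 2.60 at 12 h, against 2.68, 2.90 and 2.32 at 0 h, a difference of -0.04 (95% interval -0.90 to 0.82), with 8.05 ± 1.2 at 24 h (SD, n = 3). Their promoters are printed because they hold the interferon-stimulated response element, searched as GAAA, any 2 bases and GAAA on both strands. The 250 bases before the start sites (RefSeq, GRCh38.p14, plus strand, 5′ to 3′) lie at chr10:89392373-89392622 for IFIT1 and chr1:78649539-78649788 for IFI44. IFIT1 held 2 matches, from positions -116 and -103, and IFI44 held 1, from -18, in capitals:
IFIT1: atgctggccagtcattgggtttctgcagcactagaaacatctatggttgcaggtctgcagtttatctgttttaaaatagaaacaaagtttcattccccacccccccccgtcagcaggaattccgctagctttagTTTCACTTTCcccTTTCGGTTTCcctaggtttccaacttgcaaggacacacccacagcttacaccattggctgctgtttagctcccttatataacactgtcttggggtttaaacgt
IFI44: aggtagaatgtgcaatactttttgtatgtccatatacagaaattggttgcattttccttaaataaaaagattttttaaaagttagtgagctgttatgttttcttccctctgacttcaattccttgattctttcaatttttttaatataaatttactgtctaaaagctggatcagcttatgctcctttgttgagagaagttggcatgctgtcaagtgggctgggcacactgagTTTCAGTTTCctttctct

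IFI44L, a relative of IFI44, differed by -0.11, IFIT2 and IFIT3, relatives of IFIT1, by -0.02 and 0.46. The 95% interval lay below a 2-fold rise for 23 of the 42 genes and within 2-fold either way for 14. For the other 19 a 2-fold rise was within the interval. The intervals use the spread pooled over all arrays of the series, which for some genes was wide at 24 h. IFIT2 had SDs of 0.27 at 12 h, 0.21 at 0 h and 1.87 at 24 h, and an interval of -1.46 to 1.42. DDX60 had SDs of 0.10, 0.04 and 1.43, and an interval of -1.19 to 1.15. For such genes the interval does not show what the arrays of 12 h and 0 h alone would exclude. The 12 h mean of 7 genes was below the lowest lower quartile of the 6 arrays, 2.99, where small changes are hard to see. The arrays of 12 h lay wholly above those of 0 h for 9 genes and wholly below for 6. Together that is 35.7% of the list, against 27.9% of all genes.

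CXCL10, an interferon-induced chemokine, lay lower at 12 h, at 4.23, 4.03 and 4.21 against 7.02, 4.7 and 6.72 at 0 h. The 12 h arrays were alike and the 0 h arrays spread over more than 2 units. The difference of -1.99 missed the threshold (adjusted p = 0.0518) and passed it under 7 of 13 alternatives, with adjusted p from 0.00434 with array weights to 0.184 without replicate 1 of 0 h. With centred arrays, 2 genes of the list were called lower. PARP9, a partner of DTX3L in antiviral signalling, differed by -0.82 (adjusted p = 0.0877), TRIM22, an antiviral TRIM protein, by -1.04 (adjusted p = 0.114). SAMD9L and SAMD9, related antiviral proteins, differed by 1.66 (adjusted p = 0.104) and 1.22 (adjusted p = 0.125), with all 12 h arrays above all 0 h arrays for both.

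Of 27 genes that sense and relay interferon, 2 rose and 1 fell, 11.1% called against 8.05% of all genes. STAT3, a transcription factor of cytokine receptors, had 8.53, 8.78 and 8.71 at 12 h, against 6.41, 6.59 and 6.87 at 0 h, and rose by 2.05 (adjusted p = 0.000163). JAK1, a kinase of interferon and cytokine receptors, rose by 0.81 (adjusted p = 0.00334). TASL, the adaptor through which endosomal Toll-like receptors activate IRF5, had 2.96, 3.07 and 3.02 at 12 h, against 5.11, 5.47 and 5.0 at 0 h, and fell by 2.18 (adjusted p = 3.22e-06). The list median was 0.08 and turned to -0.01 with centred arrays. The interferon gene IFNB1 differed by 0.08, the receptor chains IFNAR1 and IFNAR2 by 0.07 and 0.05, and the transcription factors IRF1 and IRF3 by 0.04 and 0.34.

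Outside that list, APOBEC3B and SLFN5 were higher at 12 h, and both were chosen after their values were seen. APOBEC3B, a DNA cytidine deaminase, had 6.47, 5.46 and 6.80 at 12 h, against 4.18, 4.01 and 4.08 at 0 h, and rose by 2.16 (adjusted p = 0.000385). SLFN5, of the Schlafen family, had 7.55, 6.17 and 7.47 at 12 h, against 4.59, 4.59 and 5.61 at 0 h, and rose by 2.14 (adjusted p = 0.0206). For both, replicate 2 was the lowest of the 12 h arrays. APOBEC3B averaged 4.37, 5.63 and 9.11 at 4, 8 and 24 h, and SLFN5 averaged 5.46, 6.49 and 9.65. APOBEC3B was the 1 of 6 APOBEC3 genes called and SLFN5 the 1 of 6 Schlafen genes, 16.7% of each family against 8.05% of all genes. The median differences of these families were 0.0005 and -0.02. The call of SLFN5 was lost without replicate 1 or 3 of 12 h or replicate 1 or 2 of 0 h (adjusted p 0.0708 to 0.101).

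To see which changes were still under way, 12 h was also set against 4 h and 8 h in the same fit. Against 4 h, 291 genes were called (1.58%), 138 higher at 12 h (0.749%) and 153 lower (0.831%), of which 81 (0.44%) and 83 (0.451%) changed at least 2-fold. ANXA2 averaged 9.13 ± 0.14 at 12 h and 5.79 ± 0.72 at 4 h (SD, n = 3 each), a rise of 3.34 (adjusted p = 0.000145). SPP1, TIMP1, ANXA2P2 and GPNMB rose by 3.16, 2.63, 2.48 and 2.43 against 4 h. RASSF6, RASGRP3, CHI3L2, SPARCL1 and BLNK fell by 2.45, 2.44, 2.29, 2.17 and 2.08. These were the 5 largest rises and the 5 largest falls against 4 h.

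Some genes that differed from 0 h were not called between 12 h and 4 h, which does not show that their levels were equal. EGR1 averaged 10.17 at 12 h and 10.19 at 4 h, a difference of -0.02 with a 95% interval of -0.72 to 0.68. MYC differed between 12 h and 4 h by 0.03 (95% interval -0.39 to 0.46), MXD1 by -0.03 (-0.49 to 0.43) and APAF1 by -0.11 (-0.53 to 0.31). CCR7 differed by -0.05, with a wider interval of -1.29 to 1.19. TASL differed by -0.39 (-0.81 to 0.02). These 6 genes were chosen after their values were seen.

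Against 8 h, limma called 0 genes, with 1221 at an unadjusted p under 0.05 (6.63%) and 142 called with array weights. ANXA2 differed between 12 h and 8 h by 1.16, SPP1 by 1.46 and TIMP1 by 1.52, with 95% intervals of 0.44 to 1.88, 0.73 to 2.20 and 0.73 to 2.30. RASGRP3 differed by -1.05 and SPARCL1 by -0.93. None of these passed adjustment over all genes (adjusted p 0.707 to 0.745).

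**Figure D4:**
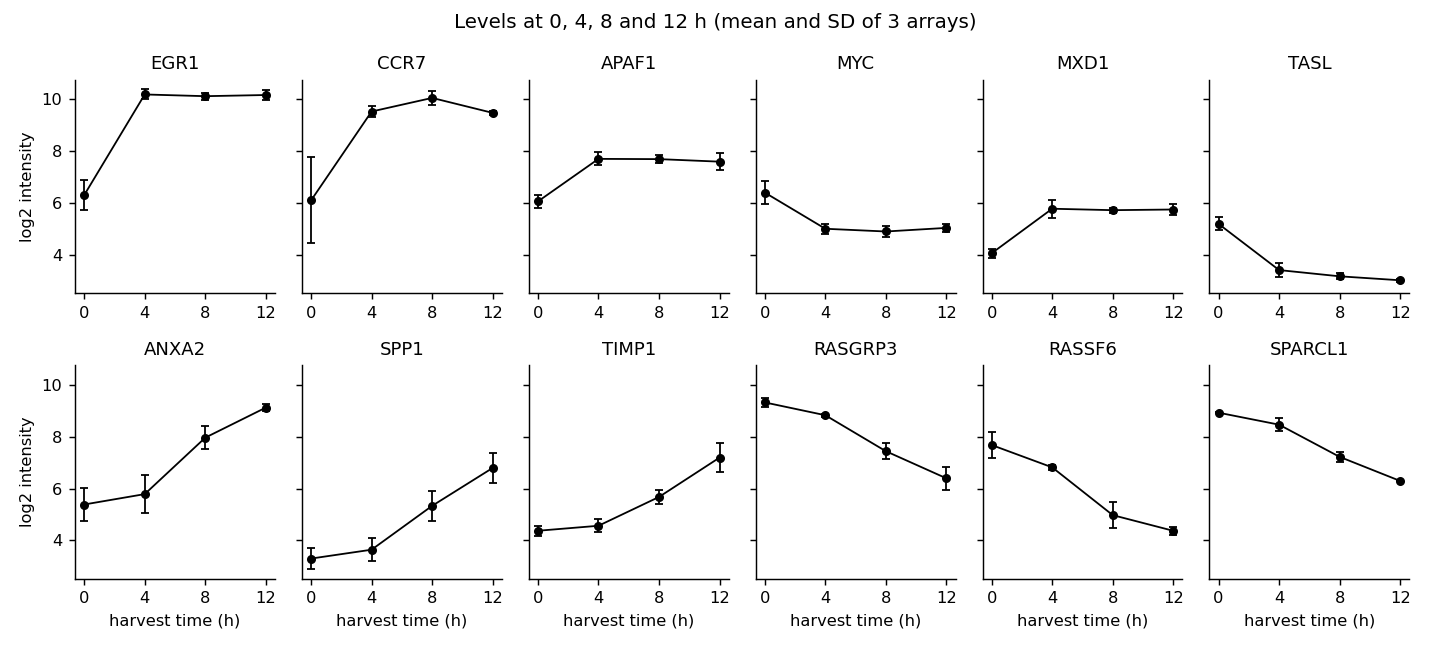
Mean log2 intensity (vertical axis) of 12 genes at 0, 4, 8 and 12 h (horizontal axis), with error bars of 1 SD over 3 arrays. The upper row shows genes not called between 12 h and 4 h, such as EGR1 at 10.17 and 10.19, and the lower row genes called between 12 h and 4 h, such as ANXA2 at 9.13 and 5.79.

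Promoter motifs were counted in windows of 250 bases before to 50 after each start site (RefSeq, GRCh38.p14), which matched 14239 of the 18417 genes with 20109 windows. The AP-1 motif was found in 5.06% of the windows of higher genes and 2.42% of those of lower genes, against 3.98% of all windows. The CArG box was in 1.5% of the windows of higher and 1.51% of those of lower genes, against 1.25% of all. The core motif of EGR factors, GCGTGGG on either strand, was in 9.09% and 9.07%, against 8.52% of all. The interferon-stimulated response element was in 2.42% and 3.33%, against 3.11% of all, and in 28 of the 44 windows (63.6%) of the interferon-stimulated genes. These shares describe letters in the windows and were not tested.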

How the data were processed

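RNA of Raji cells was measured on Affymetrix arrays after labelling as biotinylated cDNA, per the labels' protocols, on 3 arrays for each time. The authors deposited log2 intensities per probe set, and the software, background correction and normalization are not given in the sources used here. Of 33297 probe sets, 19460 name 1 gene in the platform annotation, 1754 name several and 12083 are not named here. The probe set with the highest mean stood for each of 18417 genes, 769 of which had more than 1. Groups came from the sample titles.

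All 18 arrays were fitted with time as the only term in limma 3.58.1 (R 4.3.3, moderated test, two-sided, 12 residual and 5.58 prior degrees of freedom), and p-values were Benjamini-Hochberg adjusted over all 18417 genes, with calls at an adjusted p under 0.05. The fit was run on simulated data in which a gene had the same spread at every time. That run cannot show how the fit behaves where the spread differs between times. Tables and figures used Python 3.11.15, pandas 2.3.3 and matplotlib 3.10.9.

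Named genes were the 20 largest rises and 20 largest falls among called genes whose arrays did not overlap, up to 4 called members of each of 32 gene lists with the largest differences (up to 2 of smallest p where fewer than 2 passed), the 5 largest changes each way against 4 h and against 8 h, and the 6 interferon-stimulated genes with the largest difference between 24 h and 12 h. The other called members of the gene and marker lists were added to the named genes after their values were seen, because they were called. The stability counts of named genes include them. Further list members that were not called are given as values. Genes from outside the lists and these rules are said to be chosen after their values were seen. 1 of the lists is not reported here. The members and lists were chosen with earlier results of these data known. Alternatives were quantile normalization, centring, a filter on dim genes, the mean of probe sets, a fit on the arrays of both times only, array weights, a replicate block and leaving out each array. Deviations from the group means of same-numbered arrays at 12 h and 0 h correlated at 0.21, 0.08 and 0.08. Arrays of different numbers were not correlated, so these values do not show whether the numbers pair the arrays. The main fit did not pair them, and the replicate block was run as an alternative.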

Additional observations from a re-analysis of the deposited data

How the results depend on the processing

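The 1483 calls at 12 h against 0 h became 888 to 1229 when 1 array was left out, with 427 to 638 higher and 428 to 591 lower, lowest for the total without replicate 1 of 12 h. With array weights there were 2073 calls, with the arrays of both times only 1788, and with the dim filter, which leaves fewer genes tested, 1603. With the replicate number as a block there were 1589 calls, 767 higher and 822 lower, and the block gave 332 calls at 12 h against 4 h and 0 at 12 h against 8 h. At 12 h against 4 h the 291 calls became 923 with array weights and 105 to 240 when 1 array was left out. At 12 h against 8 h, 142 genes were called with array weights and 0 under the other alternatives run. Of 190 called genes among the 203 named, 129 kept their call under every alternative run for them and 61 lost it under at least 1, and 0 changed sign. Of the 13 named genes not called, 5 passed under at least 1 alternative. Differences near 0 changed sign in 3 interferon-stimulated genes that were not called. IFI44L ranged over -0.177 to 0.0236 when 1 array was left out, IFI44 over -0.199 to 0.0901, and IFIT2 over -0.136 to 0.135, with 0.0242 for IFIT2 under array weights. The cause was not tested. Genes at or below the lower quartile of an array, 2.99 to 3.12, lie where signal limits what can be seen.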

Other observations

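Gene families outside the lists, chosen after their values were seen, were counted at 12 h against 0 h as well. Of 176 small nucleolar RNAs, which guide modification of ribosomal RNA, 16 fell and 0 rose, 9.09% of the family against 8.05% of all genes, with a median difference of -0.28. SNORD58A had 5.26, 5.25 and 5.51 at 12 h, against 7.34, 7.08 and 7.81 at 0 h, and fell by 2.07 (limma, adjusted p = 0.000888). SNORD34 fell by 1.82 (adjusted p = 0.000491). Of 74 mitochondrial ribosomal protein genes, 13 fell and 0 rose, 17.6% called against 8.05% of all genes, with a median of -0.38. MRPS27 fell by 1.16 (adjusted p = 0.000258). Of 52 replication-dependent histone genes, whose copies can share signal, 9 fell and 0 rose, 17.3% called, with a median of -0.50. H2BC14 fell by 2.12 (adjusted p = 0.00151).

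Of 21 genes of the vacuolar proton pump, which acidifies lysosomes, 5 rose and 0 fell, 23.8% called, with a median of 0.24. ATP6V1D had 8.18, 8.34 and 8.46 at 12 h, against 6.33, 6.82 and 6.85 at 0 h, and rose by 1.66 (adjusted p = 0.000255). Of 494 zinc finger genes, 16 rose and 16 fell, 6.48% against 8.05% of all genes, with a median of 0.04.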
